A study of Mus musculus with 2 samples.

Results

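Open chromatin was examined at 6 genes grouped for the copying of DNA methylation at replication: Uhrf1, Dnmt1, Pcna, Lig1, Usp7 and Uhrf2. For each gene, the ATAC-seq peaks in the gene and in 20 kb on either side were taken, and each peak was placed by its distance to the transcription start sites (TSSs) of that gene. This gave 39 of the 71914 peaks listed for WT ESCs (0.0542%) and 40 of the 61640 peaks listed for Uhrf1 KO ESCs (0.0649%). In ATAC-seq the transposase Tn5 inserts adapters into DNA that is not covered by nucleosomes, and a peak is a stretch where such insertions pile up. The groups were undifferentiated E14 mouse ESCs (genotype WT) and a Uhrf1 KO mouse ESC line. Both were grown in serum with leukemia inhibitory factor on gelatin or MEF-coated plates. Both lines came from another laboratory. The parent line of the KO cells, the deleted part of Uhrf1 and the number of KO clones are not given in the sources used here. Each genotype had 1 library from 50000 cells, so the difference between genotypes has no replicate error, no test between them was possible, and every comparison is between these libraries.

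When a replication fork has passed, a methylated CpG carries the methyl group on the old strand only. Uhrf1 recognises such hemimethylated sites and ubiquitinates histone tails and other proteins, which brings in Dnmt1, the enzyme that methylates the new strand. Pcna, the sliding clamp of the replication fork, holds Dnmt1 and the DNA ligase Lig1 on newly made DNA, Lig1 itself is a partner of Uhrf1, and the deubiquitinase Usp7 keeps Dnmt1 and Uhrf1 from being degraded. Uhrf2 is the paralogue of Uhrf1 and does not replace it in maintenance. ESCs divide rapidly, but ESCs without Uhrf1 or Dnmt1 survive with little DNA methylation.

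All 6 genes had at least 1 peak within 2 kb of a TSS in WT and in Uhrf1 KO. Among all 22372 protein-coding genes, 56.2% did. The genes had 14 such peaks in WT and 13 in Uhrf1 KO. A peak was called shared when a peak of the other library lay within 100 bp. By this rule 13 of the 14 WT peaks at the TSSs and 13 of the 13 KO peaks were shared, while 25.1% of all WT and 8.29% of all KO TSS peaks had no partner. Larger differences were seen at 2 members. Uhrf2 had 4 peaks at its TSS in WT and 1 in Uhrf1 KO. Of these WT peaks, 3 were shared with that KO peak, and merging peaks within 100 bp left 1 WT peak. Among the 12575 protein-coding genes with a TSS peak in both lists, 9.5% had at least 3 more WT than KO peaks. The Usp7 window held 6 peaks without a WT partner in Uhrf1 KO against 2 without a KO partner in WT. Over the whole lists, 24.6% of KO and 32.1% of WT peaks had no partner. The Uhrf1 gene, which is the one targeted in the KO line, kept its TSS peaks in the KO library.

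**Figure D1:**
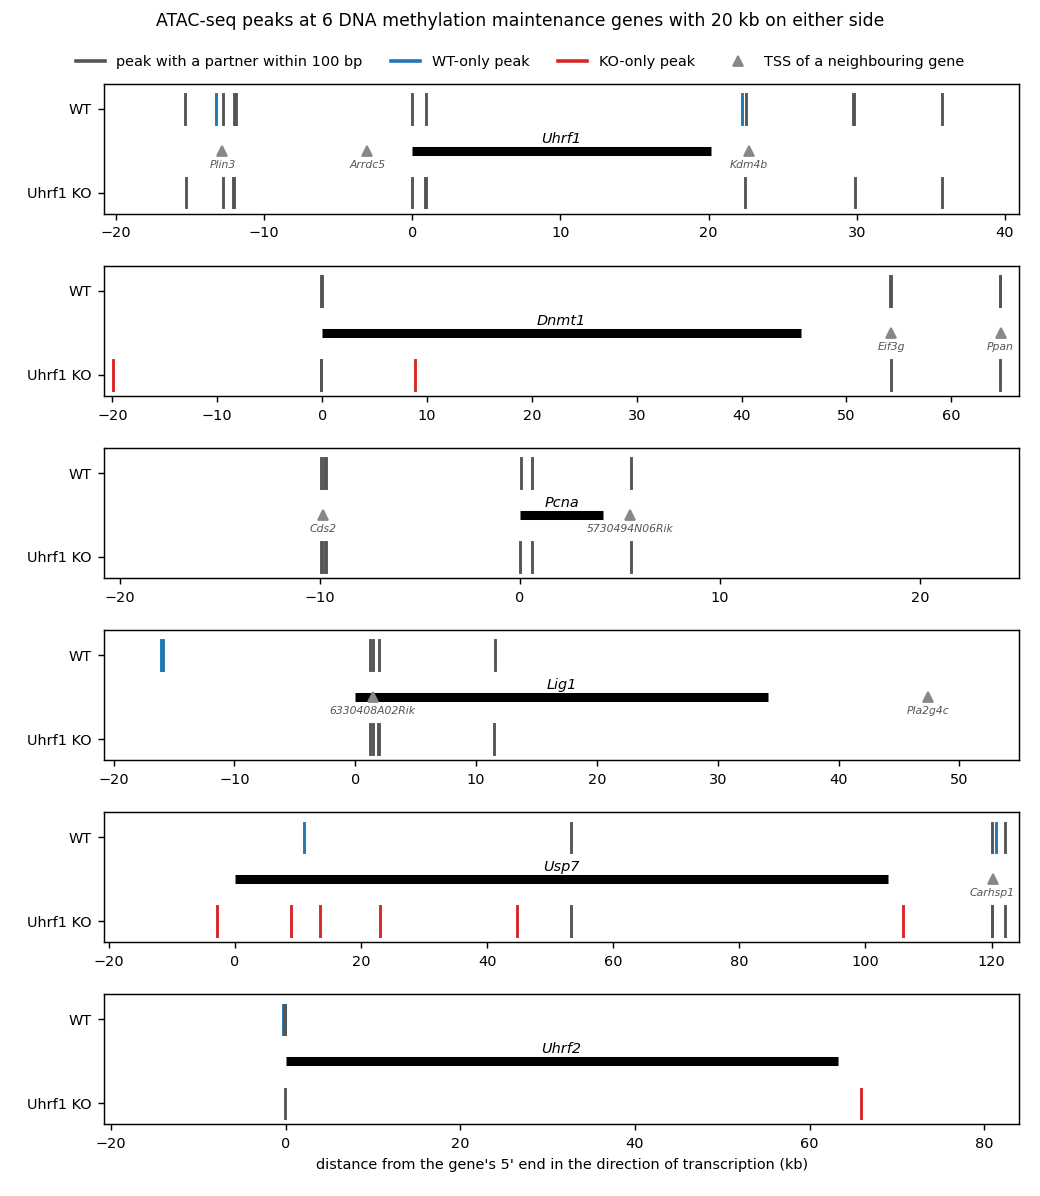
Positions of the ATAC-seq peaks in the window of each gene, in kb from the 5′ end of the gene in the direction of transcription, with WT above and Uhrf1 KO below the gene (black bar). Grey lines are peaks with a partner within 100 bp, blue lines WT-only and red lines KO-only peaks, and triangles mark TSSs of neighbouring genes. The Usp7 window holds 6 of the 9 red lines, and neighbouring peaks can merge into 1 line at this scale.

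Sequences of TSS regions are shown because all 6 genes had shared peaks there. The Pcna region at its outer TSS and the other Lig1 TSS regions are left out. They were read from the NCBIM37 genome, the same build as mm9, and run 5′ to 3′ along the strand of the gene. CpG dinucleotides, the substrate of the maintenance machinery, are in capitals. Each covers overlapping WT and KO peaks together, and bases in annotated untranslated regions were left out. In the Uhrf2 stretch, the KO peak covers only 30104892 to 30104992, and the rest was listed in WT.
Uhrf1, at the outermost TSS, chr17:56442667-56442743, plus strand: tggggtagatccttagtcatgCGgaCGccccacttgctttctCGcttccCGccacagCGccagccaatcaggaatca
Uhrf1, before the inner TSSs, chr17:56443553-56443726, plus strand: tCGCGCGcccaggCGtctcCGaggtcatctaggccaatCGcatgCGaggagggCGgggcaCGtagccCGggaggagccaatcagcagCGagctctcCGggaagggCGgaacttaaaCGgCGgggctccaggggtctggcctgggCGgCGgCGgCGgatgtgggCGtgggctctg
Dnmt1, before the TSS, chr9:20757326-20757503, minus strand: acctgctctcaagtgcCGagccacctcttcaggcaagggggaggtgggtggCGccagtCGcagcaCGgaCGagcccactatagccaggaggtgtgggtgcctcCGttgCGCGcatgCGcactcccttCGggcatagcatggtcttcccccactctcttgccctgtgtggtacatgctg
Pcna, intron after the TSSs, chr2:132078394-132078514, minus strand: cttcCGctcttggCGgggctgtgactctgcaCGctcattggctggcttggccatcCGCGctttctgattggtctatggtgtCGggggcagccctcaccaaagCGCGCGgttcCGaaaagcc
Lig1, before the cluster of TSSs, chr7:13864071-13864149, plus strand: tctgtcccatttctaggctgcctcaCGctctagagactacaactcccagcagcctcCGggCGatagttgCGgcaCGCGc
Usp7, before the inner TSS, chr16:8739048-8739181, minus strand: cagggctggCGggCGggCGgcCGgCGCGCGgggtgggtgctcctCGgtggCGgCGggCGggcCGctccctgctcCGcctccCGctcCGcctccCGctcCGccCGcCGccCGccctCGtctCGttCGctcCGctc
Uhrf2, before the TSS, chr19:30104761-30104995, plus strand: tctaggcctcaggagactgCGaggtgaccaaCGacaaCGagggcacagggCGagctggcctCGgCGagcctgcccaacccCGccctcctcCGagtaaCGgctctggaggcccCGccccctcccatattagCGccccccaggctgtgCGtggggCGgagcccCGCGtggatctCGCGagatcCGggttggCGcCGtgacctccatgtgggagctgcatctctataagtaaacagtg

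Peaks found in 1 list only, in the gene or within 5 kb of it, are shown because they carry differences between the lists. CpG dinucleotides are again in capitals.
Uhrf2, WT-only, before the TSS, chr19:30104600-30104700, plus strand: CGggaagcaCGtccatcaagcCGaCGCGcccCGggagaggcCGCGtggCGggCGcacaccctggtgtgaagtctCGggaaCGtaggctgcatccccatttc
Uhrf1, WT-only, downstream of the gene, before Kdm4b, chr17:56464949-56465049, plus strand: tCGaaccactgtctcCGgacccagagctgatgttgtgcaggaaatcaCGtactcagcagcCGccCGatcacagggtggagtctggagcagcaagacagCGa
Dnmt1, KO-only, intron, chr9:20748432-20748532, minus strand: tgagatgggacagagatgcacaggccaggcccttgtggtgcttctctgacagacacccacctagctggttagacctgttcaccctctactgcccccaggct
Usp7, KO-only, intron, chr16:8747568-8747668, minus strand: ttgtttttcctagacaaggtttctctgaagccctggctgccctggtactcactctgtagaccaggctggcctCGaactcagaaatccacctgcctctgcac
Usp7, KO-only, intron, chr16:8769296-8769396, minus strand: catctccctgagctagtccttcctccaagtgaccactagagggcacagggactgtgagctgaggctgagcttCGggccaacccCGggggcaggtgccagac
Usp7, KO-only, intron, chr16:8778919-8779019, minus strand: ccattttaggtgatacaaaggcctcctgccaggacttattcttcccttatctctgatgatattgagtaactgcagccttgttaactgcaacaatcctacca
Usp7, KO-only, intron, chr16:8783466-8783566, minus strand: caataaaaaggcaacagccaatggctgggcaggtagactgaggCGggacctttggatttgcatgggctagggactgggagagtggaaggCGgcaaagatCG
Usp7, KO-only, upstream of the gene, chr16:8795183-8795283, minus strand: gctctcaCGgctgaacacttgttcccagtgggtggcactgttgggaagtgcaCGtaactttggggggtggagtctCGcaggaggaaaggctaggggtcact
Usp7, KO-only, downstream of the gene, chr16:8686331-8686431, minus strand: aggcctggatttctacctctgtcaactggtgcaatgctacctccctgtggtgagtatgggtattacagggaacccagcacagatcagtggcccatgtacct
Usp7, WT-only, intron, chr16:8781389-8781489, minus strand: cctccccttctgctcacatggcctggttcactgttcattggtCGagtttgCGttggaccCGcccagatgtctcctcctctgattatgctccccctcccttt
Uhrf2, KO-only, downstream of the gene, chr19:30170890-30170990, plus strand: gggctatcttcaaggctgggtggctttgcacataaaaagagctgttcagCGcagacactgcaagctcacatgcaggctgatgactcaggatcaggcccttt

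Uhrf1 lies on chromosome 17 from 56442744 to 56462909 on the plus strand, with 5 annotated protein-coding TSSs in 2 groups. In WT it had a peak centred at -27 bp from the outermost TSS and a peak centred at -60 bp from the closest inner TSS, in an intron. Uhrf1 KO listed the first of these at the identical position, and 2 overlapping peaks at the inner TSSs, centred at -133 and -73 bp. The WT and KO centres closest to the inner TSSs were 13 bp apart. No other peak lay in the Uhrf1 gene in either list. The targeted gene thus had open TSS regions in both libraries, and since these positions do not show which part of Uhrf1 is deleted, they do not check the genotype labels. In all, 12 peaks were listed in the window in WT (6.20 to 21.0, 95% exact Poisson interval) and 10 in Uhrf1 KO (4.80 to 18.4), with wide overlap of the intervals. Within 10 kb of the gene the numbers were 6 and 5.

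Most peaks of the Uhrf1 window lay at the TSSs of its neighbours or in their introns, and which gene they serve was not tested. Plin3, a lipid droplet protein gene, had 4 WT and 3 KO peaks within 2 kb of its TSS, and Kdm4b, a histone demethylase gene, had 2 WT and 1 KO peaks. Arrdc5, whose 5′ end is 3035 bp from that of Uhrf1, had none in either list. The 2 WT-only peaks of the window lay at Plin3 and Kdm4b. The Kdm4b peak, from 56464949 to 56465049, missed the limit narrowly, with a gap of 106 bp to the nearest KO peak. The remaining 4 WT and 3 KO peaks lay in introns of Plin3 and Kdm4b and were all shared.

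Uhrf2, on chromosome 19 from 30105003 to 30168212 on the plus strand, was the member with the fewest peaks. Its TSS had 4 WT peaks, centred at -353, -192, -124 and -58 bp. Uhrf1 KO listed 1 peak there, centred at -61 bp, which matched the innermost WT peak within 3 bp. Of the other WT peaks, those at -124 and -192 bp counted as shared with the same KO peak (gap of 30 bp at most), and the peak at -353 bp was WT-only with a gap of 191 bp. This WT-only peak was no longer listed when the WT list was cut to as many peaks as the KO list by its name numbers, which left 3 WT peaks. The open stretch before the TSS was therefore listed over a greater length in WT. The number of peaks depended on how they were cut: when peaks within 100 bp were merged, the 4 WT peaks became 1. Among the 12575 protein-coding genes with a TSS peak in both lists, 9.5% had at least 3 more WT than KO peaks. The gene body held no peak in either list. A single KO-only peak lay downstream of the gene, 2678 bp from its end. Its window had 4 peaks in WT (interval 1.09 to 10.2) and 2 in Uhrf1 KO (0.242 to 7.22), a difference within the counting error.

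Dnmt1 lies on chromosome 9 from 20711650 to 20757317 on the minus strand, with 1 annotated TSS, and its TSS peaks nearly coincided. WT peaks were centred at -59 and -136 bp and KO peaks at -62 and -134 bp, so the centres differed by 3 and 2 bp. A KO-only peak lay in a Dnmt1 intron at 8835 bp from the TSS, and the nearest WT peak was 8793 bp away. Another KO-only peak lay in an intron of S1pr2 at -19910 bp. In WT, the gene body held no peak. The neighbours Eif3g, a translation initiation factor gene, and Ppan, a ribosome biogenesis gene, each had 2 WT and 1 KO peaks at their TSSs, all shared. In total the window held 6 peaks in each library (interval 2.20 to 13.1).

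The shortest member was Pcna, on chromosome 2 from 132074898 to 132079050 on the minus strand. WT peaks were centred at 35 bp from the outer TSS and at 472 bp from the inner TSS, within the gene. The KO peaks were centred at 6 and 452 bp. These pairs lay 29 and 20 bp apart. All 6 WT peaks (interval 2.20 to 13.1) and all 7 KO peaks (2.81 to 14.4) of the window were shared, which held for no other member. Of these, 3 WT and 4 KO peaks lay at the TSS of Cds2, a phospholipid synthesis gene, and 1 in each list at the TSS of 5730494N06Rik.

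Lig1, on chromosome 7 from 13862632 to 13896782 on the plus strand, has 7 annotated protein-coding TSSs. Its TSS peaks were listed 3 times in WT and 4 times in Uhrf1 KO, and all were shared. A pair of peaks was centred at -66 bp (WT) and -68 bp (KO) from the TSS at 13864165, and another pair at -353 and -349 bp. The KO peak at -141 bp from the TSS at 13864614 did not overlap a WT peak and was shared only through a gap of 17 bp. The 5′ end of 6330408A02Rik, transcribed the other way, lies between these TSSs and was served by the same peaks, so they cannot be assigned to 1 of the genes. The TSS of the shorter transcripts at 13891275 had no peak within 2 kb in either list. A shared peak further into the gene lay at 8675 bp (WT) and 8655 bp (KO) from the nearest TSS. The 2 WT-only peaks of the window lay in an exon of 6330408A02Rik, at -16054 and -15909 bp. The central 31 bp of 1 WT and 2 KO peaks at the TSS occur at 2 places of the genome, so reads of these peaks can come from another copy. Lig1 had 6 WT peaks in its window (interval 2.20 to 13.1) and 5 KO peaks (1.62 to 11.7).

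**Figure D2:**
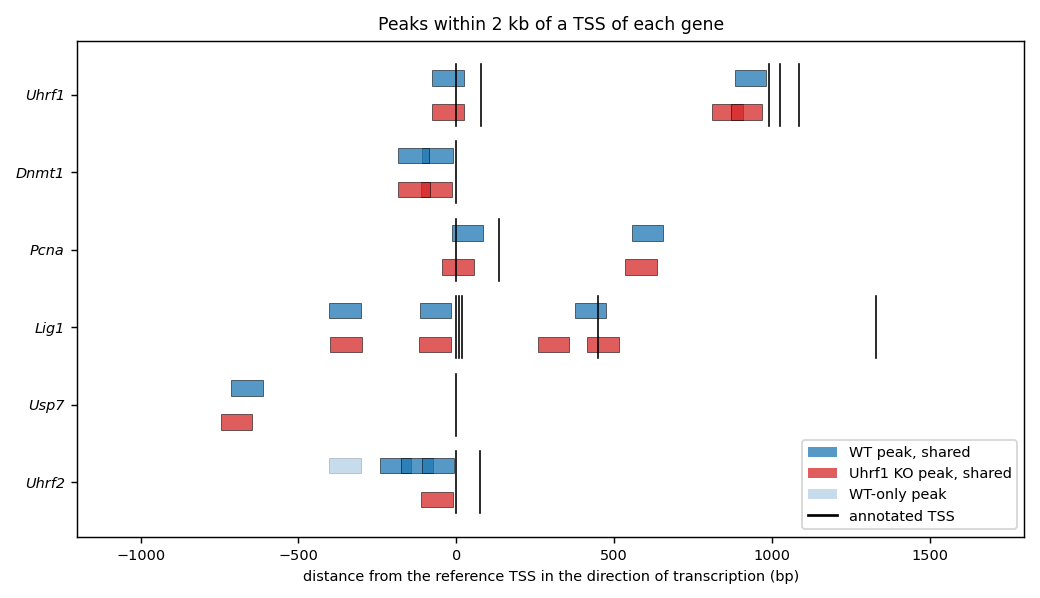
Peaks within 2 kb of a TSS of each gene, drawn to scale in bp from a reference TSS (the outermost TSS that is the nearest to any of these peaks), with WT in blue above Uhrf1 KO in red and annotated TSSs as vertical lines, those beyond the axis left out. The pale box is the WT-only peak of Uhrf2, which had 4 WT peaks and 1 KO peak, and the Dnmt1 centres lie 3 and 2 bp apart.

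Usp7 differed most between the lists. The gene runs on chromosome 16 from 8688815 to 8792401 on the minus strand, and its 3 protein-coding TSSs are spread over this length. A peak near a TSS was present only at the innermost TSS at 8738435, centred at -663 bp in WT and at -696 bp in Uhrf1 KO, and these were shared. The TSSs at 8757110 and 8792401, where longer transcripts start, had no peak within 2 kb. Uhrf1 KO listed 4 KO-only peaks in introns of Usp7, starting at 8747568, 8769296, 8778919 and 8783466. All 4 lie upstream of the TSS at 8738435. The peak at 8747568 lies between this TSS and the one at 8757110. The other peaks lie upstream of 8757110 too, so of the protein-coding transcripts only the one that starts at 8792401 spans them. A KO-only peak also lay on each side of the gene, starting at 8795183 (2782 bp outside) and at 8686331 (2384 bp outside). WT listed 1 WT-only peak in an intron, starting at 8781389 and also upstream of the TSS at 8738435. Another WT-only peak lay at the TSS of the neighbour Carhsp1, starting at 8671690. Carhsp1 had 2 WT and 3 KO peaks at its TSS, and the third of the KO peaks was shared with a WT peak that lay just beyond 2 kb. The nearest peak of the other library was 1976 to 13955 bp away from these 6 KO-only peaks, so no overlap rule used here joins them.

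All 6 distal KO peaks of the Usp7 window were KO-only, where distal means more than 2 kb from the TSS of any protein-coding gene (100%, 95% exact binomial interval 54.1% to 100%). On chromosome 16 as a whole, 39.1% of distal KO peaks were KO-only. The whole Usp7 window had 5 peaks in WT (interval 1.62 to 11.7) and 10 in Uhrf1 KO (4.80 to 18.4), with overlapping intervals. Usp7 was singled out after its values were seen. With the lower 50% of peak-name numbers only, it had 3 WT and 4 KO peaks, of which 1 was KO-only. At least 5 more KO than WT peaks were listed in 0.545% of the windows of all protein-coding genes and in 1.11% of the 2790 windows of 100 to 200 kb, the class of the Usp7 window (144 kb). Of the KO-only Usp7 peaks, 1 (8747568) had central 31 bp found at 2 places of the genome, and those of the other 5 were found once. Only exact copies of these 31 bp were counted. Near copies, as in repeat families, were not looked for, so reads of any of these peaks may still come from elsewhere.

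**Figure D3:**
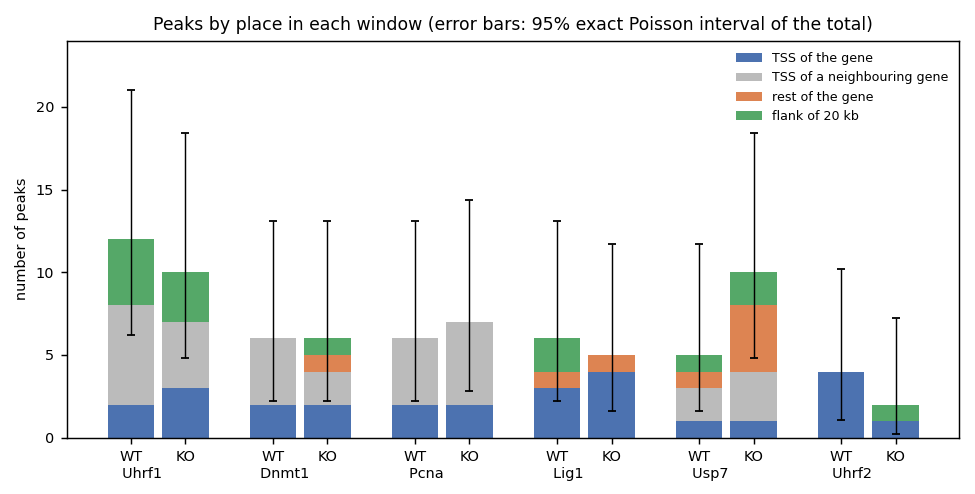
Number of peaks in the window of each gene by place: at the TSS of the gene, at the TSS of a neighbouring gene, in the rest of the gene, or in the flank of 20 kb. Error bars are 95% exact Poisson intervals of the total, which cover counting error only and overlap for every gene, also for Usp7 with 5 WT and 10 KO peaks.

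Over all 6 windows, 7 of 39 WT peaks were WT-only (17.9%, interval 7.54% to 33.5%), beside 32.1% of all WT peaks. In Uhrf1 KO, 9 of 40 peaks were KO-only (22.5%, interval 10.8% to 38.5%), beside 24.6% of all KO peaks. At the TSSs of the members, 1 of 14 WT peaks was WT-only (7.14%, interval 0.181% to 33.9%), beside 25.1% of all TSS peaks. None of the 13 KO peaks there was KO-only, which allows a share of up to 24.7%, beside 8.29% of all TSS peaks. Each of these background shares lies within the interval of the members, so a difference from the rest of the list was not detectable with so few peaks.

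Away from TSSs the members' KO peaks were unpaired more often than paired. Of the 13 distal KO peaks, 9 were KO-only (69.2%, interval 38.6% to 90.9%), beside 37.2% of all distal KO peaks. The background value lies just below this interval, and the share rests on Usp7: without it, 3 of 7 distal KO peaks were KO-only (42.9%, interval 9.90% to 81.6%). Of the 9 distal WT peaks, 3 were WT-only (33.3%, interval 7.49% to 70.1%), beside 38.7%. Neighbouring peaks are not independent, and intervals cover counting error only. In bulk ATAC-seq, fewer cells with an open site and less opening in each cell cannot be told apart.

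The numbers of TSS peaks did not lean to 1 library. Uhrf2 had more in WT, Uhrf1 and Lig1 had more in Uhrf1 KO (3 against 2 and 4 against 3), and Dnmt1, Pcna and Usp7 had equal numbers. Of all genes with a TSS peak in both lists, 46% had more WT peaks, 34.5% equal numbers and 19.5% more KO peaks. Centres of the 13 shared KO peaks at the members' TSSs lay a median of 13 bp from the nearest WT centre (quartiles 3 and 33 bp), beside 25 bp (8 and 56 bp) for all shared TSS peaks of the KO list. Whole windows had more WT peaks at 3 genes (Uhrf1, Lig1 and Uhrf2), more KO peaks at 2 (Pcna and Usp7) and equal numbers at Dnmt1, beside 48.7% of all windows with more WT and 21% with more KO peaks. The sum over the windows was 39 WT and 40 KO peaks, a ratio of 1.03, beside 0.857 for the lists as a whole. This rests on Usp7, without which the sums were 34 WT and 30 KO peaks, and the order turned with 50 kb on either side (75 WT and 61 KO peaks) and in the lower 50% of name numbers (29 and 26).

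The TSS peaks of the members were rich in CpG. Their median GC content was 65.3% in WT (lowest 60.4%, highest 81.2%, 14 peaks) and 65.3% in Uhrf1 KO (60.4% to 86.1%, 13 peaks), beside medians of 67.3% and 66.3% over all TSS peaks of each list. The observed number of CpGs relative to that predicted from the base content was 0.766 in WT and 0.690 in Uhrf1 KO (medians), beside 0.774 and 0.748. The Usp7 TSS peaks stood highest in GC, with 81.2% (WT) and 86.1% (KO) and 17 CpGs in each. Dnmt1 had the lowest ratio, 0.455 in the outer of its peak pairs in both lists. By contrast, the 9 distal KO-only peaks had a median of 1 CpG (0 to 3), a GC content of 55.4% and a ratio of 0.146, beside medians of 1 CpG, 52.5% and 0.234 for all distal KO peaks. The 4 shared distal KO peaks of the members were alike, with medians of 1 CpG, 56.5% and 0.108, so the contrast in the KO list is between TSS and distal peaks. The 3 distal WT-only peaks stood higher, with medians of 4 CpGs and a ratio of 0.464. The 6 shared distal WT peaks had 1 CpG and 0.176, and all distal WT peaks 2 and 0.288. The KO-only peaks in the Dnmt1 intron and at 8778919 and 8686331 in the Usp7 window held no CpG. The WT-only peak before the Uhrf2 TSS held 12.

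**Figure D4:**
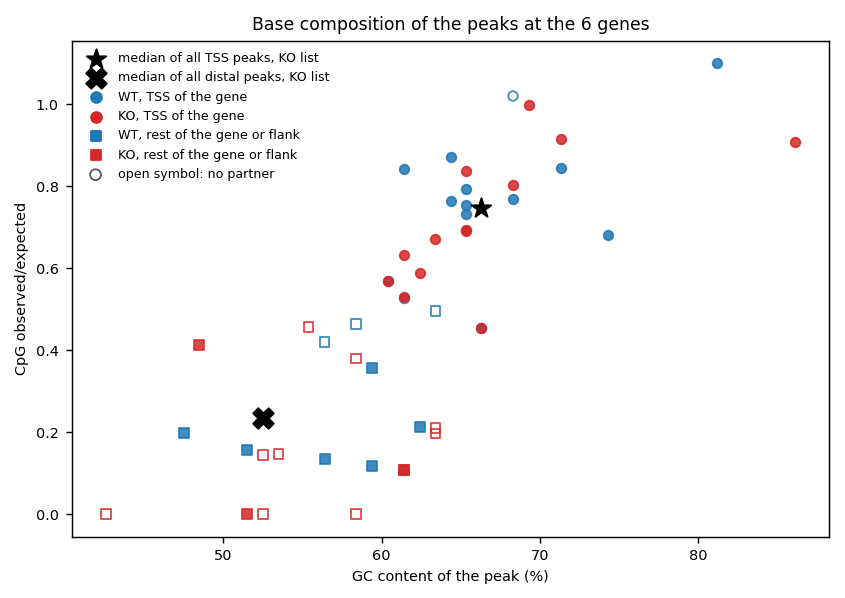
GC content (x axis, %) and observed/expected CpG ratio (y axis) of each peak at the TSSs of the 6 genes (circles) and in the rest of the genes and flanks (squares), in WT (blue) and Uhrf1 KO (red). Open symbols have no partner, and the black star and cross are the medians of all TSS and all distal peaks of the KO list. Peaks at the TSSs lie at a ratio of 0.455 or above, and the red squares, open and filled, lie at 0.457 or below. The blue squares reach 0.495.

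Short sequence matches were sought on both strands of the 200 bp around the centre of each peak. They are matches of letters and do not show that a factor was bound. Windows of neighbouring peaks can overlap, so 1 site can be counted in more than 1 peak. The GC box GGGCGG was found in 71.4% of the 14 WT and 69.2% of the 13 KO peaks at the members' TSSs, beside 58.8% and 59.7% of all TSS peaks, and each of the 6 genes had a peak with it in both lists. CCAAT was found in 35.7% of the members' WT and 46.2% of their KO TSS peaks, beside 23.3% and 27.7%, and these peaks lay at Uhrf1, Dnmt1 and Pcna. The letters TTTCCCGC, TTTGGCGC or TTTCGCGC, forms of the site of the cell cycle factors of the E2F family, were found in 2 of the 14 WT peaks (at Dnmt1 and Pcna) and 2 of the 13 KO peaks (at Dnmt1 and Uhrf1), beside 2.27% and 2.29% of all TSS peaks. The different results for Pcna and Uhrf1 come from the placing of the listed peaks, since the genome sequence is the same. The NRF1 motif, a palindrome, was found in both Dnmt1 peaks of each list (14.3% of the 14 WT peaks), beside 1.18% of WT TSS peaks. The windows of these Dnmt1 peaks overlap and the printed sequence holds the motif once, so this is 1 site at 1 of the 6 genes. CCGGAAG, an ETS site, occurred in 2 of the 14 WT peaks (at Lig1 and Uhrf2) and 1 of the 13 KO peaks (at Lig1), beside 9.67% and 10.7%. TGACGTCA occurred at no TSS peak of the members, beside 1.96% of WT TSS peaks.

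Among the 13 distal KO peaks, the octamer ATGCAAAT occurred in 1, the KO-only Usp7 peak at 8783466, beside 2.68% of all distal KO peaks. A loose form of the CTCF motif, searched for after the sequences were seen, occurred in the KO-only Usp7 peak at 8769296 and in the shared Plin3 peak of the Uhrf1 window. It occurs in 12.4% of all distal KO peaks. CCAAT occurred in 2 of the 13 distal KO peaks and the GC box in 2, beside 29.2% and 15.1%. Of the 9 distal WT peaks, 5 held the GC box, some of them overlapping, and 1 held CCAAT, beside 18.9% and 26%. The octamer was in none of these WT peaks, and the CTCF form was in 1, beside 2.36% and 17.2%. The E2F, ETS and NRF1 letters and TGACGTCA occurred in no distal peak of the members.

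Every peak name ends in a running number for its chromosome, whose meaning is not given in the sources used here. It was turned into a rank, from the lowest number (near 0%) to the highest (100%). The shared TSS peaks of the members had low ranks, with a median of 12.9% in WT (2.57% to 33.8%) and 11.0% in Uhrf1 KO (2.77% to 67.4%). Shared peaks at the neighbours' TSSs had medians of 20.3% and 13.4%, and all shared peaks of the lists 35.8% and 40.1%. Peaks without a partner had a median of 77.3% in WT (25.3% to 95%, 7 peaks) and 79.1% in Uhrf1 KO (28% to 93.1%, 9 peaks), beside 73.9% and 74.4% for all peaks without a partner. The lowest ranks among the KO-only peaks belonged to the Dnmt1 intron (28%) and to the Usp7 intron at 8769296 (40.0%), and the other 5 Usp7 peaks ranked from 64.6% to 88.4%. The WT-only Uhrf2 peak had the highest rank of the WT peaks, at 95%.

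**Figure D5:**
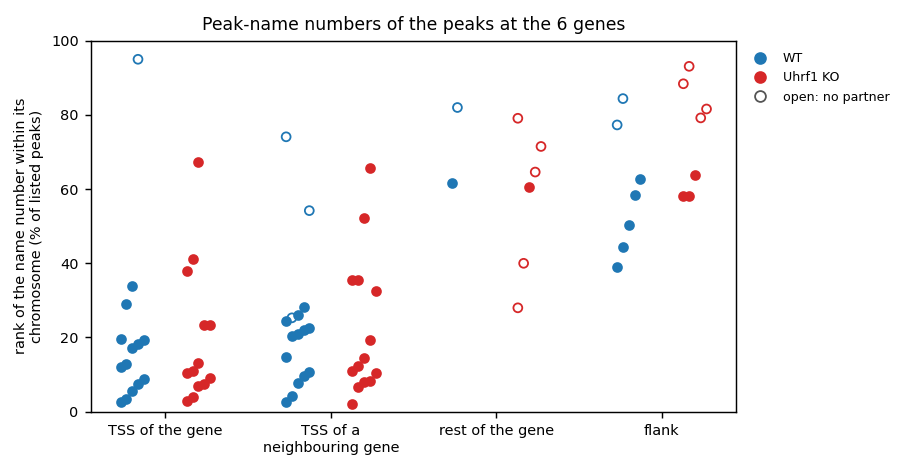
Rank of the peak-name number within its chromosome (y axis, % of the listed peaks) for the peaks of the 6 windows by place, in WT (blue) and Uhrf1 KO (red), with open symbols for peaks without a partner. Shared peaks at the TSSs of the genes lie between 2.57% and 67.4%, and the open red symbols between 28% and 93.1%.

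Other genes act with the maintenance machinery. Of a list of 16 such genes, 10 had a TSS peak in both lists (62.5%, interval 35.4% to 84.8%), beside 56.2% of all protein-coding genes and 6 of 6 members (interval 54.1% to 100%), so no difference was detectable. The 10 genes included Hells, a chromatin remodeller needed for DNA methylation, Trim28, a corepressor, and Chaf1a and Chaf1b, subunits of the histone chaperone of the replication fork. A TSS peak in the WT list only was found for 4 genes, beside 6.75% of all protein-coding genes. These were Kat5, an acetyltransferase gene (4 WT peaks and 0 KO peaks), and 2810417H13Rik, Dmap1 and Fen1, with 1 WT peak each. 2810417H13Rik encodes the Pcna-associated factor Paf15, Dmap1 a protein that binds Dnmt1, and Fen1 the nuclease that trims Okazaki fragments. Cdca7, the partner of Hells, had a TSS peak in the KO list only (1 peak), beside 1.75% of all protein-coding genes. Ehmt2, a histone methyltransferase gene, had no peak within 2 kb of an annotated TSS in either list and 8 WT and 5 KO peaks in its window. Absence from a list does not show that a site was closed.

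Of these 16 genes and the other 5 members, Chaf1a had the peak numbers most like those of Uhrf1. Uhrf1 had 2 peaks at the TSS, 0 in the rest of the gene and 10 in the flanks in WT, and 3, 0 and 7 in Uhrf1 KO, with peaks at neighbouring TSSs counted in the flanks. Chaf1a had 2, 0 and 8 in WT and 2, 0 and 10 in Uhrf1 KO, and the absolute differences sum to 6. Pcna came next, with a sum of 9. The likeness is over 2 libraries and draws mostly on peaks in the flanks.

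The cell type was checked at the same distance of 2 kb. The 7 ESC markers Pou5f1, Nanog, Sox2, Zfp42, Esrrb, Tdgf1 and Dppa3 had TSS peaks in both lists (100%, interval 59% to 100%). Of all protein-coding genes, 56.2% did. Of 7 fibroblast genes, which would mark feeder cells, Col1a1, Col1a2 and Prrx1 had TSS peaks in both lists (4, 2 and 3 in WT, 2, 3 and 2 in Uhrf1 KO). The interval of this share (42.9%, 9.90% to 81.6%) includes the 56.2% of all protein-coding genes. These genes therefore cannot show whether feeder cells were present. Dcn had 1 WT peak only, and Col3a1, Postn and Twist2 had none. The part of feeder cells in the lists was not tested.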

How the data were processed

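ATAC-seq was performed on WT and Uhrf1 KO ESCs, with 1 library each. The authors mapped reads to mm9 with Bowtie2 2.1.0, keeping 1 alignment for each read, and used fragments under 150 bp. The submitters' processing notes also name HOMER 4.9.1. The peak caller, its threshold and any shift to the Tn5 cutting site are not given in the sources used here. The deposited files hold peak positions and a score, which is 1 for all peaks. All but 1 of the peaks had a width of 101 bp. The files hold no read counts, so the depth behind a peak is unknown.

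Positions were compared with Python 3.11.15, numpy 2.4.6 and scipy 1.17.1, and figures were drawn with matplotlib 3.10.9. Genes and TSSs of protein-coding transcripts came from GENCODE vM1, and sequence from NCBIM37, the build of mm9. Promoter tables on another build were not used. Peaks overlapping a gene with 20 kb on either side were counted, with distances from the peak centre. Shares have 95% exact (Clopper-Pearson) binomial and numbers 95% exact Poisson intervals. Lists were also compared after merging peaks within 100 bp, with other flanks, TSS distances and overlaps, with the lower 50% of name numbers, with the WT list cut to the length of the KO list, and, added after seeing the data, without the Usp7 window or without peaks at neighbouring TSSs. The overlap routine was checked on simulated data. All 6 members are named, as are neighbouring genes with a TSS in a window and a peak within 2 kb of it, the genes of the pathway list without a TSS peak in both lists, and the genes most like Uhrf1 by peak numbers. The other names (the examples of the pathway list, Arrdc5 and S1pr2) were chosen after their values were seen. Members and lists were chosen with earlier results of these data known.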

Additional observations from a re-analysis of the deposited data

How the results depend on the processing

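No paired analysis was possible because the lists come from 1 library per genotype. Values were recomputed under 190 alternatives: 141 stayed within their limit, and 49 did not. The limit was the interval for shares, 1.5 times for counts, and 1 standard deviation around the median for base composition. Of the 190, 144 concern single genes, of which 37 moved. With 50 kb on either side, the windows held 75 WT and 61 KO peaks, since more sequence was counted. With the lower 50% of name numbers they held 29 WT and 26 KO peaks, and in both settings WT had more, unlike the 39 and 40 peaks reported. When partners had to overlap over 50% or more of each peak, this left 38.5% of WT and 40.0% of KO peaks without a partner, and then 6 genes had a KO-only peak. When only peaks in the lower 50% of name numbers were looked up in the full list of the other genotype, the shares were 3.45% and 7.69%, and 1 gene had a WT-only peak. Of 2 settings chosen after seeing the data, leaving out the Usp7 window gave 10.0% KO-only peaks, and leaving out peaks at neighbouring TSSs gave 34.6%. A TSS peak in both lists was found for 54.2% of all protein-coding genes within 1 kb and 52.2% within 500 bp. Within 500 bp, 5 of the 6 members had one, and the exception was Usp7. The constant score allowed no stricter threshold.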
